A study of Mus musculus with 9 samples.

Results

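The genes described here are the leukocyte surface antigens with a CD symbol and the Fc receptors, C-type lectins, Siglecs, SLAM family receptors and paired Lilr and Pilr receptors. They were chosen by symbol alone: every row of the count table whose mouse symbol begins with Cd and a digit, or with Fcgr, Fcer, Fcrl, Clec, Siglec, Slamf, Lilr or Pilr, with 1 gene left out of the rule. This rule found 123 of 14052 genes. RNA was sequenced from renal cortex of mice about 1 year old on a normal diet. The tumour group holds 5 tumour areas (L4, R2, R3, R4 and R5) from Vhl F/F;Pbrm1 F/F;Ksp-Cre mice on a mixed C57BL/6, BALB/c and 129 background. The normal group holds 4 areas (L1, L2, R1 and R2), all of wild-type C57BL/6 mice. Ksp is the promoter of a cadherin of kidney tubule epithelium, so the leukocytes in a tumour area are not the cells in which this Cre is driven. Descriptions of the areas carry 1 number per group, so each group may be a single animal, and p-values then measure the spread between areas. Genotype, tissue and strain differ together between the groups and cannot be told apart.

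CD symbols number surface molecules that antibodies were first raised against, mostly on leukocytes, and many of them are now known from other cells as well. Fc receptors bind the constant part of antibodies, C-type lectins and Siglecs bind sugars, and many of these receptors come in activating and inhibitory versions. Activating versions signal through tyrosine motifs called ITAMs, often on a partner chain such as Tyrobp, and inhibitory versions recruit phosphatases through motifs called ITIMs. In the kidney these molecules are known above all from resident macrophages, dendritic cells and infiltrating lymphocytes, while some, such as Cd34, Cd93 and Fcgrt, mark endothelium or epithelium.

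The libraries held 5143527 to 8250261 counted reads. Vhl stood at 45.1 to 75.6 CPM (counts scaled to library size by TMM) in tumour areas and 97.6 to 108 CPM in normal areas, without overlap. Pbrm1 stood at 106 to 162 CPM in tumour areas and 141 to 164 CPM in normal areas, and these ranges overlapped. Counts per gene include reads of exons outside a deleted part and of cells without Cre. A list of pan-leukocyte genes held 16 genes of the table. Of its 12 tested genes, 11 were higher in tumour areas and none was lower, at a median log2 fold change of 3.44. In bulk tissue, more cells of a type and more RNA per cell cannot be told apart.

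Of the 123 members, 59 passed the filter on low counts and were tested, 43 were counted but stayed below the filter, and 21 were listed at 0 in every area. In edgeR's quasi-likelihood test, with Benjamini-Hochberg adjustment over all 7020 tested genes, 47 members were higher in tumour areas, 6 were lower and 6 were not called at an adjusted p under 0.05. Over all tested genes, 74.6% were called, 39.3% higher and 35.3% lower, so a call alone says little in this comparison. An increase of at least 2-fold was called in 39 members, against 17.3% of all tested genes. No tested member fell by as much as 2-fold, against 12.6% of all tested genes. The areas of the groups did not overlap in 47 members with tumour higher (34.8% of all tested genes) and in 8 with tumour lower (33.0% of all tested genes). The filter admits a gene through 1 group alone, so some members had to differ in order to be tested. In 22 members not every normal area reached the filter level of 1.68 CPM, and 21 of these were called higher, against 75.6% of the 767 such genes in the whole table. The other 37 members were at or above that level in every normal area, and of these 26 were higher, 6 lower and 5 not called, at a median log2 fold change of 0.91. The same split of all genes gave 6253 with every normal area at that level, of which 34.9% were higher and 39.5% lower, at a median of -0.04.

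**Figure D1:**
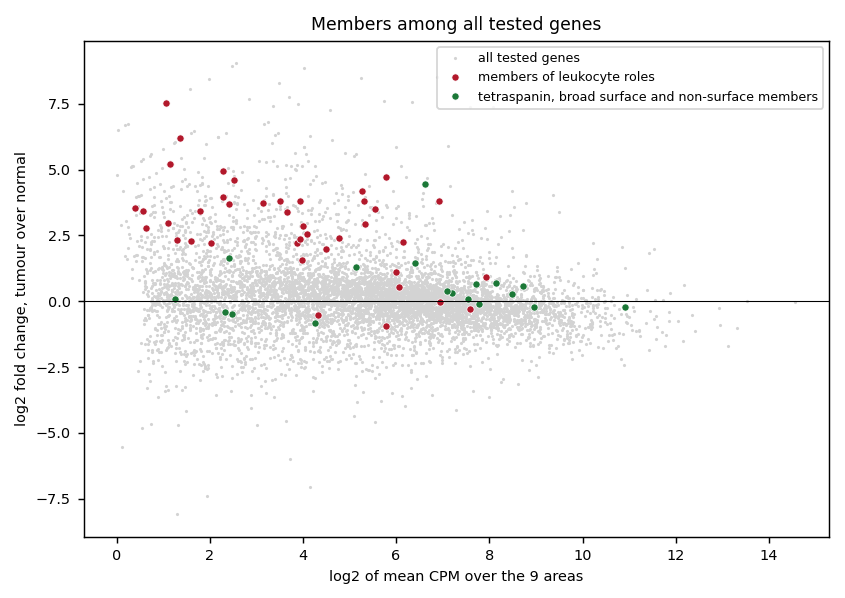
Each point is 1 tested gene, with log2 of its mean CPM over the 9 areas on the horizontal axis and its log2 fold change, tumour over normal, on the vertical axis. Members of the leukocyte roles (red) lie mostly above 2 on the vertical axis, while the tetraspanin, broad surface and non-surface members (green) lie mostly near 0 at higher mean levels; all 7020 tested genes are in grey.

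Several zeros in the table fall on genes that cells of these tissues use. Ptprc, which encodes the common leukocyte antigen, was listed at 0 in all 9 areas, and so was Ptpn11, a phosphatase gene of nearly every cell. Among the members, Fcgr3, Cd2, Cd6, Cd72, Cd200, Fcrl1, Siglecf and Siglecg were listed at 0 throughout. Cd8a held 5 counts over the tumour areas and 1 over the normal areas, although its partner chain Cd8b1 was well counted. A listed 0 is thus no sign that a gene was off, and levels of different genes are not compared with each other here, only the same gene between areas.

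Promoter sequences were matched by symbol in the RefSeq table (build GRCm38.p6, 250 bases before to 50 after the start), which held 99 of the 123 members. The core letters GAGGAAG of the binding site of PU.1, a transcription factor of myeloid and B cells, were present on either strand in 15 of 37 promoters of members called higher (40.5%). The same letters were present in 21 of 62 promoters of the other members (33.9%) and in 13.5% of all 27025 promoters. The core letters TGTGGT of the RUNX site were present in 29.7% of members called higher, 27.4% of the others and 16.9% of all promoters. The core letters ACGTG of the site of HIF, the factor that the Vhl protein controls, were present in 27.0% of members called higher, 12.9% of the others and 19.7% of all promoters. Such matches describe letters and not bound sites, and overlaps between motifs were not removed. The promoters of 5 members that recur in the results are shown, 5′ to 3′ on the strand of the gene, with GAGGAAG or its reverse complement in capitals.
Fcgr1 (chr3:96293920-96294219, minus strand): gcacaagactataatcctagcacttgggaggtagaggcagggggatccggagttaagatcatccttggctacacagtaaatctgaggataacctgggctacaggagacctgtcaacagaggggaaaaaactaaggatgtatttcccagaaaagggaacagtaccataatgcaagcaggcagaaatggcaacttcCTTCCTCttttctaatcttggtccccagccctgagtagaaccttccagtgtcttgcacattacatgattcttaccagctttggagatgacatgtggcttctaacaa
Fcgr4 (chr1:171018676-171018975, plus strand): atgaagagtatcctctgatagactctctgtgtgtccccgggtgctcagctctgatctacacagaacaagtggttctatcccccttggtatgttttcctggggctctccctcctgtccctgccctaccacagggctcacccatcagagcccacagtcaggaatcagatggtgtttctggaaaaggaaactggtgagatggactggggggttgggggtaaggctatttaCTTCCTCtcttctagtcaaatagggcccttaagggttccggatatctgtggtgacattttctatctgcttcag
Fcgr2b (chr1:170976022-170976321, minus strand): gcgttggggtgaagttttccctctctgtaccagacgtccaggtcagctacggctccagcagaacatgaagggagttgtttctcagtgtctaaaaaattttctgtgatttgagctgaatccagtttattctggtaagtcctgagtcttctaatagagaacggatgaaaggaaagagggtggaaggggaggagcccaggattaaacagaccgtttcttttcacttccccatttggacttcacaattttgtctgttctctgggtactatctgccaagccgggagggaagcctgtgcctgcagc
Cd53 (chr3:106790100-106790399, minus strand): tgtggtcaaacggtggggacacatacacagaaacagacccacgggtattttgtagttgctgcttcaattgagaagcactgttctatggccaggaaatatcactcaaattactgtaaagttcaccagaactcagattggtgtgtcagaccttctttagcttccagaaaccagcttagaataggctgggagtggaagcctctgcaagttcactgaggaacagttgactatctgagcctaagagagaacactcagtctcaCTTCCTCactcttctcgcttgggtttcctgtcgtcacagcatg
Clec4a1 (chr6:122921598-122921897, plus strand): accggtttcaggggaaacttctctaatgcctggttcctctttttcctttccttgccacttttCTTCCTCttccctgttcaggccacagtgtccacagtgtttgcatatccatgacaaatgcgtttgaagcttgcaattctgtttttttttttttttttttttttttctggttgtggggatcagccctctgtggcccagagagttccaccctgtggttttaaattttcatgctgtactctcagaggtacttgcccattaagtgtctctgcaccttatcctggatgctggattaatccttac
The match began 56 bases before the start in Fcgr1, 23 bases before it in Fcgr4, 188 bases before it in Clec4a1 and 7 bases after it in Cd53, each time as the reverse complement. Fcgr2b, the inhibitory receptor beside Fcgr4 on the same chromosome, had no match in this window.

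Of 14 receptors of T and NK cells in the table, 8 were tested, and all 8 were called higher in tumour areas, at log2 fold changes of 2.21 to 4.72. Of these, 6 passed the filter without every normal area at its level, so their calls add little, and the other 2 were Cd4 and Cd3e. Among the untested members Cd160 and Cd8a overlapped between the groups, and Cd2 and Cd6 were listed at 0. Cd4, the coreceptor of helper T cells, had 140, 88.2, 57.5, 77.2 and 119 CPM in tumour areas L4, R2, R3, R4 and R5, against 4.11, 4.63, 2.82 and 2.83 CPM in normal areas L1, L2, R1 and R2. The lowest tumour area thus lay far above the highest normal area, and the log2 fold change was 4.72 ± 0.32 (standard error, edgeR adjusted p = 5.75e-07). Cd3e, a signalling chain of the T cell receptor complex, had 102, 63.9, 40.3, 42.6 and 84.6 CPM in tumour areas L4 to R5, against 4.11, 4.36, 2.32 and 3.84 CPM in normal areas (4.19 ± 0.36, edgeR adjusted p = 2.65e-06). L4 and R5 were the highest tumour areas for both genes, and R3 the lowest. Cd27, a costimulatory receptor, averaged 9.99 ± 3.98 CPM in tumour areas (SD, n = 5) and 0.443 ± 0.354 CPM in normal areas (SD, n = 4). Cd247, the zeta chain of the same complex, averaged 19.3 ± 4.94 CPM in tumour areas and 1.37 ± 0.256 CPM in normal areas. The exons of Cd247 overlap those of Pou2f1 on the opposite strand over 60.3% of their length, so its counts are uncertain in a library that keeps no strand.

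Cd8b1, a chain of the coreceptor of cytotoxic T cells, had 6.94, 6.03, 5.44, 4.50 and 8.36 CPM in tumour areas and 1.51, 1.5, 1.66 and 0.607 CPM in normal areas (2.21 ± 0.28, edgeR adjusted p = 4.71e-05). Its increase was the smallest among the tested T and NK members. The log2 ratio of Cd4 to Cd8b1 counts was 3.38 to 4.32 in tumour areas and 0.74 to 2.05 in normal areas, a pair chosen after the values were seen and not tested. Cd69, an early activation antigen, averaged 15.1 ± 4.21 CPM in tumour areas and 1.08 ± 0.574 CPM in normal areas, and Cd3d averaged 5.83 ± 2.88 CPM in tumour areas and 0.528 ± 0.127 CPM in normal areas. Below the filter, Cd96, an NK and T cell receptor, held 78 counts in tumour areas and 0 in normal areas, an increase of at least 18.5-fold when 3 counts are taken as the upper limit for all normal areas together.

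Of 10 B cell receptors in the table, 3 were tested, Cd79b, Fcer2a and Cd38, and all 3 were called higher in tumour areas. Cd38 alone had every normal area at the filter level, and the other 2 passed through the tumour areas. Among the untested members Cd40 and Cd180 overlapped between the groups, and Cd72, Fcrl1 and Siglecg were listed at 0. Cd79b, a signalling chain of the B cell receptor, had 6.11, 4.19, 3.63, 3.92 and 5.32 CPM in tumour areas, against a single count, in L2, over the normal areas. The ratio was 108, with a 95% counting interval of 19.0 to 4282. Fcer2a, the low-affinity IgE receptor of B cells, had 5.51 to 14.4 CPM in tumour areas and 0.216, 0.136, 0.664 and 0 CPM in normal areas (4.94 ± 0.57, edgeR adjusted p = 2.11e-05). Without normal R1, which held 4 of its 6 normal counts, the Fcer2a value was 5.95. Fcrl5, an Fc receptor-like protein of B cells, was at least 14.7-fold higher over 0 normal counts. Cd38, an NAD-consuming ectoenzyme found on plasma cells and many others, averaged 84.3 ± 13.3 CPM in tumour areas and 38.6 ± 4.89 CPM in normal areas (1.13 ± 0.13).

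**Figure D2:**
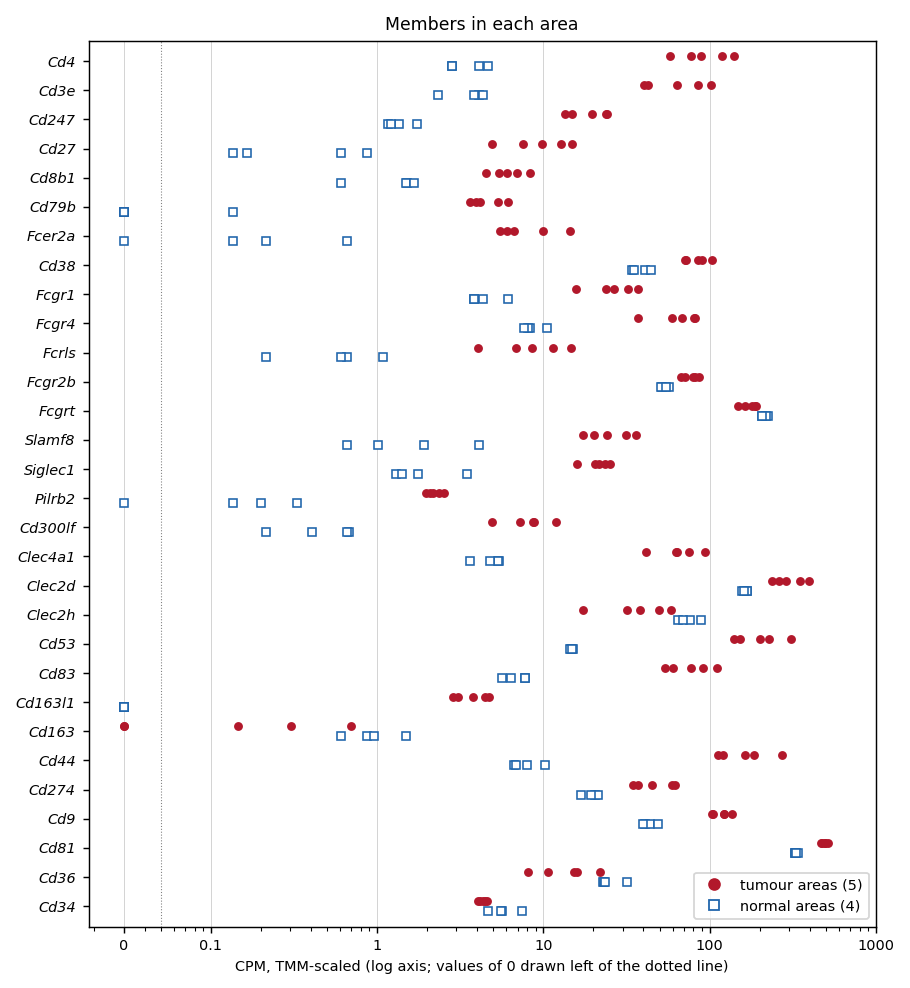
Points give the CPM of 30 members on a log axis in each of 5 tumour areas (filled circles) and 4 normal areas (open squares); values of 0 are drawn left of the dotted line. T cell, B cell and phagocyte members lie higher in tumour areas without overlap between the groups, apart from Cd163, which overlaps. Fcgrt, Clec2h, Cd36 and Cd34 lie on the lower side in tumour areas.

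Fc receptors divided by type. The IgG receptors Fcgr1 and Fcgr4, which act through ITAMs, and the inhibitory Fcgr2b were all higher in tumour areas, and Fcgrt was lower. Fcgr4 had 81.2, 68.7, 59.5, 37.1 and 80.8 CPM in tumour areas and 10.6, 8.31, 8.13 and 7.69 CPM in normal areas (2.92 ± 0.24, edgeR adjusted p = 2.08e-06). Fcgr1, the high-affinity IgG receptor of monocytes and macrophages, had 37.2, 26.5, 23.8, 15.8 and 32.5 CPM in tumour areas and 4.32, 6.13, 3.82 and 3.84 CPM in normal areas (2.56 ± 0.27, edgeR adjusted p = 1.16e-05). For both genes L4 was the highest and R4 the lowest tumour area, and the groups did not overlap.

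Fcgr2b, which inhibits through an ITIM and is known from B cells, myeloid cells and some endothelium, had 82.1, 71.6, 85.8, 67.5 and 79.6 CPM in tumour areas. Normal areas had 51.9, 57.4, 50.8 and 54.4 CPM of Fcgr2b, so the groups did not overlap (0.53 ± 0.08, edgeR adjusted p = 0.00018). The log2 ratio of Fcgr4 to Fcgr2b counts within an area was -0.86 to 0.02 in tumour areas and -2.81 to -2.28 in normal areas. For Fcgr1 to Fcgr2b it was -2.09 to -1.14 in tumour areas and -3.79 to -3.21 in normal areas. Both ratios were chosen after the values were seen and carry no test. Fcgrt, the neonatal Fc receptor that recycles IgG and albumin in endothelium, podocytes and proximal tubule, had 163, 149, 188, 181 and 189 CPM in tumour areas and 206, 224, 219 and 207 CPM in normal areas (-0.30 ± 0.08, edgeR adjusted p = 0.00449). With libraries scaled by size alone the Fcgrt difference was -0.01 and was not called. Fcrls, an Fc receptor-like scavenger receptor known in mouse from macrophages and microglia, averaged 9.09 ± 4.07 CPM in tumour areas and 0.644 ± 0.358 CPM in normal areas (3.69 ± 0.48).

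The C-type lectins moved in both directions. Of 23 lectin genes 6 were tested, 4 of them higher and 2 lower. Clec12a and Clec2i passed the filter without every normal area at its level, so their calls add little. Of the other 4, 2 were higher and 2 lower. Clec4a1, of the Dcir family of monocytes and dendritic cells, had 93.6, 62.7, 63.7, 41.2 and 75.1 CPM in tumour areas and 5.40, 5.31, 4.81 and 3.64 CPM in normal areas (3.80 ± 0.25, edgeR adjusted p = 5.41e-07). Clec12a, an inhibitory receptor of myeloid cells, averaged 3.5 ± 1.41 CPM in tumour areas and 0.431 ± 0.449 CPM in normal areas. It stood at 3.59 on the log2 scale without normal R2, against 2.96 with all areas. Clec2i and Clec2d encode ligands of NK cell lectin receptors. Clec2i averaged 2.52 ± 1.16 CPM in tumour areas and 0.202 ± 0.145 CPM in normal areas. Clec2d had 396, 288, 263, 237 and 351 CPM in tumour areas and 157, 167, 168 and 161 CPM in normal areas (0.91 ± 0.14, edgeR adjusted p = 0.00015).

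Clec2h, a relative of Clec2d known from gut and kidney, was lower in tumour areas. It had 31.9, 17.3, 49.7, 59.0 and 38.3 CPM in tumour areas and 64.2, 76.3, 69.5 and 88.4 CPM in normal areas (-0.93 ± 0.28, edgeR adjusted p = 0.0113). Area R2 was the lowest and R4, at 59.0 CPM, came closest to the normal areas. Clec1a, known from endothelium and myeloid cells, averaged 16.7 ± 1.78 CPM in tumour areas and 24.2 ± 1.81 CPM in normal areas (-0.53 ± 0.10, edgeR adjusted p = 0.000929), a call lost when libraries were scaled by size alone (adjusted p = 0.103 in edgeR).

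Siglecs, SLAM receptors, the paired Lilr and Pilr receptors and the CD300 family rose in all of their tested members, numbering 2, 2, 3 and 3. Siglece, Slamf7, Lilra5, Cd300a and Cd300ld had every normal area at the filter level, and the other tested members passed through the tumour areas. Siglec1, the sialoadhesin of tissue macrophages, had 25.3, 21.5, 23.4, 16.0 and 20.4 CPM in tumour areas and 1.30, 1.77, 3.49 and 1.42 CPM in normal areas (3.38 ± 0.26, edgeR adjusted p = 1.44e-06). Siglece, an inhibitory Siglec of myeloid cells, averaged 23.8 ± 5.11 CPM in tumour areas and 4.66 ± 0.666 CPM in normal areas. Slamf8, a SLAM protein of macrophages, had 36.1, 24.3, 20.3, 17.4 and 31.3 CPM in tumour areas and 4.11, 1.91, 0.664 and 1.01 CPM in normal areas (3.79 ± 0.41, edgeR adjusted p = 1.42e-05). Slamf7, of NK and plasma cells among others, averaged 42.6 ± 10.7 CPM in tumour areas and 8.21 ± 2.0 CPM in normal areas.

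Among paired receptors, both the inhibitory Pilra and the activating Pilrb2 rose, by 2.33 ± 0.47 and 3.52 ± 0.39 on the log2 scale. Pilrb2 lay at 1.98 to 2.54 CPM in tumour areas and 0 to 0.332 CPM in normal areas. It shares 29.2% of its 50-base stretches with other genes, mostly Pilrb1, so the treatment of shared reads in counting bears on it. Lilra5, an activating receptor of myeloid cells, averaged 22.3 ± 5.11 CPM in tumour areas and 7.54 ± 0.740 CPM in normal areas. The inhibitory receptors Cd300a and Cd300lf rose by 2.19 ± 0.25 and 3.95 ± 0.37. Cd300ld had 27.1 to 43.5 CPM in tumour areas and 7.30 to 9.51 CPM in normal areas. An inhibitory and an activating receptor thus both rose in the Pilr family, though Pilra and Pilrb2 both passed the filter through the tumour areas.

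A mixed role held molecules of phagocytes and antigen presentation, the pan-leukocyte tetraspanin Cd53, and Cd163l1, which is known in mouse from gamma delta T cells. Of its 23 members 9 were tested, and 8 of these were called higher. Every normal area stood at the filter level in 5 of the 9, of which 4 were higher. Cd53 had 310, 201, 153, 141 and 227 CPM in tumour areas and 15.1, 14.6, 14.4 and 14.8 CPM in normal areas (3.81 ± 0.25, edgeR adjusted p = 4.78e-07). The coefficient of variation of Cd53 was 32.8% in tumour areas and 2.04% in normal areas. Cd83, a marker of mature dendritic cells, had 111, 77.8, 54.2, 60.2 and 91.8 CPM in tumour areas and 7.78, 6.40, 7.80 and 5.66 CPM in normal areas (3.52 ± 0.24, edgeR adjusted p = 6.39e-07). Cd74, the invariant chain that guides MHC class II, averaged 109 ± 21.1 CPM in tumour areas and 23.1 ± 1.97 CPM in normal areas.

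Counts in normal areas were very few for 3 of these genes. Cd80, a costimulatory ligand, held 130 counts in tumour areas and 2 in normal areas, both in L1, for a ratio of 46.4 (12.6 to 387). Cd200r1, an inhibitory receptor of myeloid cells, had 2.76 to 4.58 CPM in tumour areas and 2 counts in normal areas, for a ratio of 44.9 (12.2 to 375). Cd163l1, of the scavenger receptor family, had 2.85 to 4.71 CPM in tumour areas and no count in normal areas, an increase of at least 29.2-fold under the same limit. Cd302, a lectin-like receptor, stood at 122 ± 8.52 CPM in tumour areas and 125 ± 4.13 CPM in normal areas and was not called (edgeR adjusted p = 0.641).

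The haemoglobin scavenger receptor Cd163, a marker of resident macrophages, went the other way. It held 8 counts over the tumour areas and 23 over the normal areas, or 0.694, 0, 0, 0.145 and 0.304 CPM in tumour areas and 0.865, 0.954, 1.49 and 0.607 CPM in normal areas. The ranges overlapped, through L4 alone. Cd163 stayed below the filter. In the fit without a filter it was called lower (-1.93, edgeR adjusted p = 0.028), 1 of 2 members below the filter called lower there, beside 14 called higher.

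**Figure D3:**
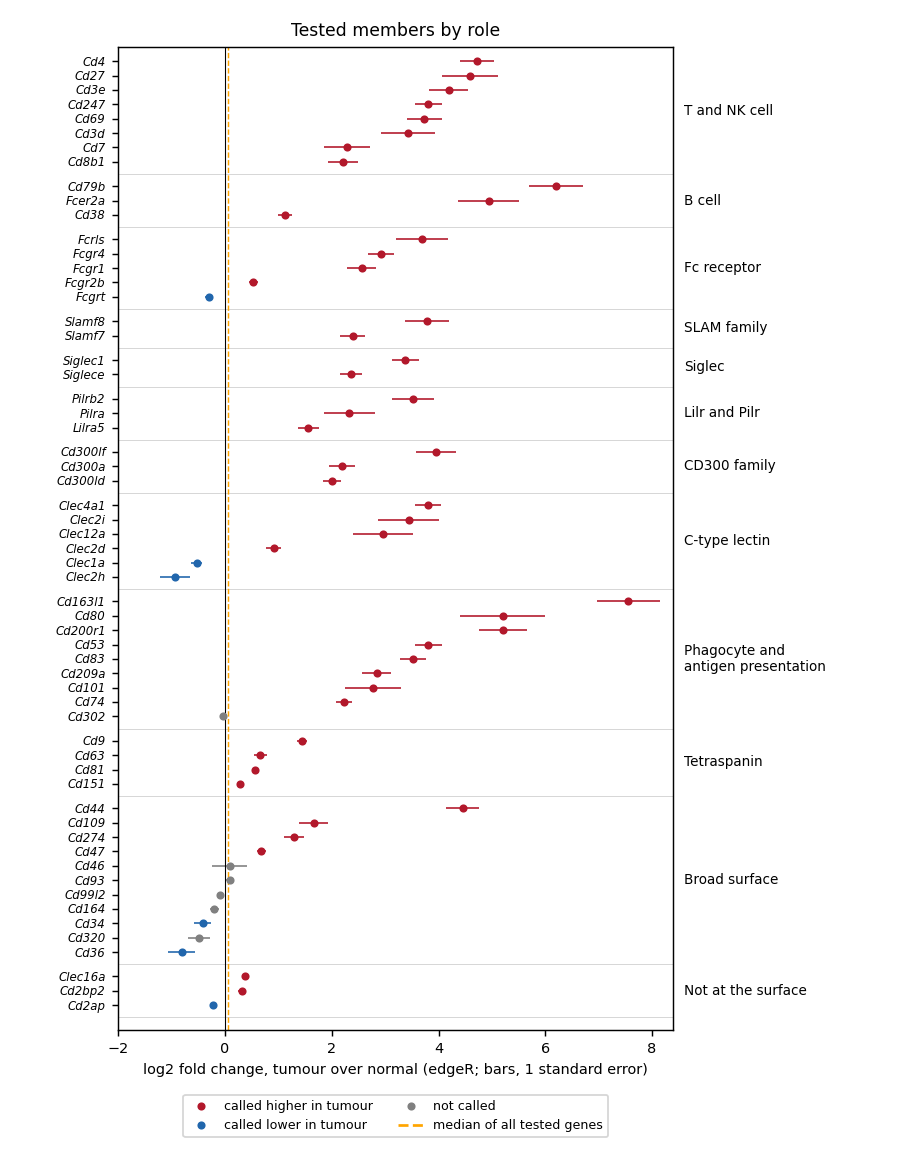
Points give the log2 fold change, tumour over normal, of the 59 tested members by role, with bars of 1 standard error from the edgeR fit; the dashed line marks the median of all tested genes, at 0.06. All tested members from the T and NK role to the CD300 family are called higher apart from Fcgrt, and most tetraspanin and broad surface members lie closer to 0, with Cd44 at 4.45; the value of Cd163l1 is a fitted one over 0 normal counts.

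Tetraspanins, which organise other membrane proteins and are found on most cells, rose modestly. All 4 tested members were called higher, at 0.28 to 1.44 on the log2 scale. Cd9 had 137, 122, 122, 105 and 104 CPM in tumour areas and 41.1, 44.1, 49.1 and 39.8 CPM in normal areas (1.44 ± 0.10, edgeR adjusted p = 6.65e-07). Cd81 averaged 490 ± 19.0 CPM in tumour areas and 332 ± 7.10 CPM in normal areas, and Cd151 averaged 389 ± 21.9 CPM in tumour areas and 322 ± 3.84 CPM in normal areas. Cd63, a tetraspanin of late endosomes, had 184, 294, 256, 275 and 243 CPM in tumour areas and 146, 148, 177 and 162 CPM in normal areas. L4 was the lowest tumour area for Cd63, whereas it was the highest for most leukocyte members.

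Ratios of counts within an area do not depend on library scaling. Of 13 pairs listed for such a test, 3 had at least 10 counts of both genes in each group. The pairs were listed with earlier results of these data known, so their p-values do not come from a blind choice. The log2 ratio of Cd9 to Cd81 was -2.06 ± 0.19 in tumour areas and -2.93 ± 0.12 in normal areas (SD, n = 5 and 4). The difference of 0.87 had p = 0.00794 in a 2-sided exact permutation test over all splits of the areas, the smallest p this design allows, and 0.0238 after adjustment over the 3 pairs. Cd9 thus rose more than Cd81. For Cd63 to Cd81 the difference was 0.09 (exact permutation p = 0.556). For Cd34 to Cd93, both surface molecules of endothelium, the ratio was -5.43 ± 0.16 in tumour areas and -4.94 ± 0.34 in normal areas (exact permutation p = 0.0238, adjusted 0.0357), a call that was lost without any 1 of tumour L4, R2, R3 or R4 or normal R2.

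Broadly expressed surface molecules were called in both directions. Of 11 tested, 4 were higher, 2 lower and 5 not called, at a median log2 fold change of 0.09. Cd44, the hyaluronan receptor of leukocytes and many tumour cells, had 274, 164, 120, 112 and 184 CPM in tumour areas and 10.2, 6.68, 7.97 and 6.88 CPM in normal areas. Its order over the tumour areas was that of Cd53, with L4 first and R4 last. Cd274, the ligand of the T cell checkpoint receptor, had 61.7, 45.3, 34.8, 37.3 and 59.6 CPM in tumour areas and 20.5, 21.4, 19.3 and 16.8 CPM in normal areas (1.29 ± 0.19, edgeR adjusted p = 0.000114). Cd47, the signal that holds back phagocytes, averaged 339 ± 34.7 CPM in tumour areas and 212 ± 8.05 CPM in normal areas (0.68 ± 0.08). Cd109, which binds TGF-beta, averaged 7.63 ± 2.47 CPM in tumour areas and 2.45 ± 0.584 CPM in normal areas.

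Cd36, a fatty acid uptake receptor of epithelium, endothelium and macrophages, had 10.7, 8.05, 16.0, 21.9 and 15.2 CPM in tumour areas and 22.9, 23.2, 23.4 and 32.0 CPM in normal areas (-0.81 ± 0.25, edgeR adjusted p = 0.0127). With library size alone the Cd36 call was lost (-0.54, adjusted p = 0.0567 in edgeR). Cd34, of endothelium and progenitor cells, averaged 4.32 ± 0.202 CPM in tumour areas and 5.83 ± 1.19 CPM in normal areas (-0.42 ± 0.16, edgeR adjusted p = 0.0342). This call was lost under 11 of 17 alternatives. Beside these 2 genes, 6 of 9 tested genes of a list of endothelial genes were lower in tumour areas and 2 higher, and the list summed to 1136 to 1398 CPM in tumour areas and 1642 to 1721 CPM in normal areas. Whether fewer endothelial cells have a part in the Cd34, Clec1a or Fcgrt values was not tested. Cd93, also of endothelium, stood at 190 ± 21.0 CPM in tumour areas and 179 ± 7.56 CPM in normal areas (edgeR adjusted p = 0.347). Cd164, Cd99l2, Cd46 and Cd320 were not called either, at log2 fold changes of -0.20, -0.10, 0.09 and -0.49.

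The rule on symbols also took in 3 genes whose proteins are not leukocyte antigens. Cd2ap, an adaptor of the podocyte slit diaphragm, was lower (466 ± 24.6 CPM in tumour areas, 542 ± 11.2 CPM in normal areas, -0.22 ± 0.05). With library size alone Cd2ap read 0.07 higher and was not called. Cd2bp2, of the spliceosome, and Clec16a, of endosomal traffic and mitophagy, were higher by 0.31 ± 0.07 and 0.38 ± 0.05.

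The higher members shared much of their order over the tumour areas. Of the 39 members called at least 2-fold higher, 32 (82.1%) had their highest tumour value in L4 and 6 in R5. Of all tested genes, 31.5% had theirs in L4 and 11.7% in R5. All tested genes include those called lower, and the share among all genes called at least 2-fold higher is not given here. Both L4 and R5 lay above all of R2, R3 and R4 in 27 of the 39. The lowest value lay in R4 for 23 of them and in R3 for 11. Shares of all tested genes with these orders are not given here, so the counts are not read as particular to the members. The mean of L4 and R5 exceeded that of the other 3 tumour areas by a median of 1.51 times. The coefficient of variation was larger in tumour than in normal areas in 40 of 59 tested members. Among the 37 members with every normal area at the filter level, it was larger in tumour areas in 35. The share of all tested genes with a larger value in tumour areas is not given here. The median coefficient over B cell members was 22.6% in tumour areas and 113% in normal areas. There, 2 of 3 tested members had normal areas below the filter level, where few counts alone give a large coefficient. The median was also lower in tumour areas for the SLAM, Siglec, Lilr and Pilr and CD300 families. Each of these held at least 1 tested member with a normal area below that level, so these medians are no trait of the families. Over the tested T and NK members the median was 37.0% in tumour areas and 28.2% in normal areas. Of these 8 members, 6 also had a normal area below that level. Over the tetraspanins the median was 8.7% in tumour areas and 5.7% in normal areas. Over all tested genes it was 14.5% in tumour areas and 6.7% in normal areas. A larger coefficient in tumour areas is thus not particular to the members.

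**Figure D4:**
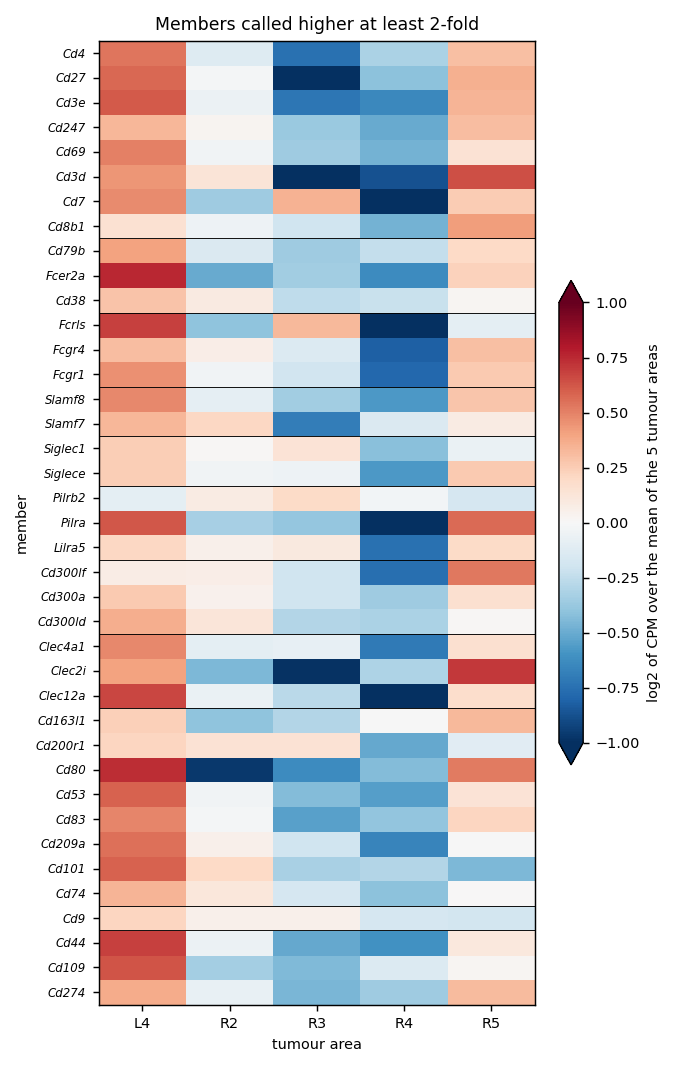
Each row is 1 of the 39 members called at least 2-fold higher, each column 1 tumour area, and the colour is log2 of the area's CPM over the mean of the 5 tumour areas, with values beyond 1 or -1 drawn in the end colours. L4 is the highest area in 32 rows and R4 the lowest in 23.

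Lists of urothelial and fat genes were highest in L4 and next in R5, whereas a proximal tubule list set apart L4 but not R5. A list of urothelial and keratinised epithelium genes summed to 1266 CPM in L4, 258 in R5 and 53.7 to 123 in the other tumour areas, against 0.996 to 7.36 CPM in normal areas. A fat cell list summed to 599 CPM in L4, 128 in R5, 17.4 in R4, 3.45 in R3 and 1.51 in R2, against 2.02 to 9.95 CPM in normal areas. Most of the L4 sum was Cfd, at 455 CPM, and Plin1, at 139 CPM, and Plin1 was not called. The proximal tubule list was lowest in L4, at 27345 CPM. It stood at 38421, 46847, 50397 and 41331 CPM in R2, R3, R4 and R5, against 64986 to 66855 CPM in normal areas. Without L4 and R5, 43 of 55 tested members were higher and 5 lower. Pilra, Cd7, Clec12a and Clec2i then fell below the filter, as did Pilra without L4 or R5 alone and Clec2i without any 1 of L4, R2, R4 or R5, and the fitted Cd80 value moved to 4.55.

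Genes that carry signals from these receptors rose with them. Of 50 listed ITAM and ITIM signalling genes, 39 were in the table, 8 of them at 0 in every area, and 21 were tested. Of these, 19 were higher, 1 was lower and 1 was not called, at a median log2 fold change of 2.56. Tyrobp, the ITAM adaptor of many activating receptors, had 68.6, 53.0, 51.3, 29.3 and 54.7 CPM in tumour areas and 7.35, 6.81, 3.98 and 6.27 CPM in normal areas (3.08 ± 0.26, edgeR adjusted p = 2.72e-06). The kinase Fgr of myeloid cells rose by 4.01 ± 0.23. Blk, a kinase of B cells, held 2 counts in normal areas, for a ratio of 272 (75.2 to 2254). The inositol phosphatase Inpp5b was the gene that fell, at 13.6 to 14.8 CPM in tumour areas and 54.5 to 60.9 CPM in normal areas. It is not confined to leukocytes. Ptpn6 and Vav1 stand in both this list and the pan-leukocyte list. Syk and Inpp5d, also listed, had no rows under those symbols in the count table.

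Below the filter, the 43 counted members were few in reads. In 18 of them no normal area held a count, and 17 had under 10 counts over all 9 areas. Cd209g, a relative of the dendritic cell lectin Cd209a, reached 6.39 CPM in L4, with the other 4 tumour areas at 0.363 to 1.37 CPM, against 1 count over the normal areas. Cd209a itself passed the filter, with 38.2, 27.0, 22.8, 16.5 and 26.1 CPM in tumour areas and 2.81, 4.22, 2.99 and 4.45 CPM in normal areas (2.84 ± 0.27, edgeR adjusted p = 4.9e-06). Cd86, the partner of Cd80 in costimulation, held 12 counts in tumour areas and 3 in normal areas, a ratio of 2.85 (0.770 to 15.8) whose interval includes no change. Cd276 held 2 counts in each group.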

How the data were processed

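Poly(A) RNA from 5 tumour and 4 normal areas was sequenced as paired 50-base reads with a kit that keeps no strand, per the labels' protocols. STAR 2.3, HTSeq, edgeR and the build mm9 are named, without their roles, in the submitters' processing notes. The deposited values were whole-number counts per gene, not normalized by the authors, for 14052 genes, 26 of them without a symbol. Members, lists and pairs were chosen with earlier results of these data known. Counts were fitted over all genes with edgeR 4.0.16 in R 4.3.3 (TMM scaling, filterByExpr with a minimum count of 10 and total of 15, quasi-likelihood test, Benjamini-Hochberg adjustment at 0.05), with tumour over normal as the single contrast. Standard errors were taken from the log2 fold change and its F value. The script was tested on simulated data. Ratios with 1 to 3 counts in a group carry exact 95% intervals, which cover counting error only. A group at 0 was set to a floor of 3 counts, and 3 counts in 1 library equal 0.364 to 0.583 CPM before TMM scaling. Pair ratios had 0.5 added to each count. Alternatives used DESeq2 1.42.0, limma 3.58.1, other scalings and filters, the letter of the area as a covariate, and areas left out. Named members were those called lower, up to 4 per role with the largest increase and 1 CPM in tumour areas, the 2 of highest mean per role, uncalled members with 10 CPM, and those in pairs. Others, such as Cd96, Fcrl5, Cd209g, Cd160, Cd40 and Cd180, were named after their values were seen. Shared and overlapping stretches were found in GENCODE transcripts and exon annotation of GRCm38, with no mm9 coordinates used.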

Additional observations from a re-analysis of the deposited data

Results flagged for a closer look

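In 99 groups of areas of named members, 6 held 1 area far from the others by Dixon's test, where chance flags about 1 in 20 groups. Clec1a stood at 19.9 CPM in tumour L4 and at 15.5 to 16.4 CPM in the other tumour areas. Lilra5 stood at 13.3 CPM in tumour R4 and at 23.1 to 25.7 CPM in the other tumour areas. Cd36 stood at 32.0 CPM in normal R2 and at 22.9 to 23.4 CPM in the other normal areas. Cd8b1 stood at 0.607 CPM in normal R2 and at 1.5 to 1.66 CPM in the other normal areas. Cd80 stood at 0.432 CPM in normal L1, which is 2 counts, and at 0 in the other normal areas. Cd79b stood at 0.136 CPM in normal L2, which is 1 count, and at 0 in the other normal areas.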

How the results depend on the processing

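Of 59 tested members, 44 kept their direction and their side of the threshold in all 17 alternatives. Another 4 (Pilra, Cd7, Clec12a and Clec2i) did so where tested but fell below the filter in some, and 11 changed. Scaling by library size alone shifted the median of all genes by 0.29 on the log2 scale. Calls over all genes were then 3735 higher and 1689 lower (68.9% higher, against 52.7% with TMM), and among members 50 higher and 1 lower (98.0%, against 88.7%). Called lower were then 0 Fc receptors, 0 broad surface members, 1 lectin and 0 of the non-surface members, and Cd2ap read 0.07, Cd164 0.08, Cd302 0.26 and Cd99l2 0.19. With DESeq2's size factors in edgeR, 4 broad surface members were lower. Without a filter, 5 B cell, 8 lectin and 14 phagocyte members were higher and 2 ITAM and ITIM genes lower, since more genes were tested. A filter of 1 CPM in 4 libraries also gave 5 B cell members. Without tumour L4 and R5, 1 broad surface member was lower, 2 lectins were higher, 2 ITAM and ITIM genes were lower, Cd302 read 0.04, Cd46 -0.24, and Cd34 to Cd93 -0.51 (exact permutation p = 0.0571). Leaving out 1 area gave 3 to 5 B cell members higher, 1 to 3 broad surface members lower, 1 to 2 ITAM and ITIM genes lower and -0.61 to -0.33 for Cd34 to Cd93. Cd302 read 0.01 without tumour L4, and Cd46 -0.06 without tumour R5, -0.14 without normal R1 and up to 0.39 without another area. Fitted values over few normal counts moved most: Cd79b reached 7.80 without normal L2, Cd80 7.65 without normal L1, and Cd163l1 6.84 in DESeq2 and 5.43 in limma-voom. Apart from fewer or more genes tested, the cause was not tested. No paired analysis was possible because the groups come from different mice, and the area name R2 that both hold does not pair them. Depth limits members under about 1 CPM.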
